A study of Mus musculus with 18 samples.

Results

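The transcripts of 7 enzymes of heme synthesis, Alas1, Alad, Uros, Urod, Cpox, Ppox and Fech in pathway order, were followed across all groups of the series. They were chosen by name as members of the pathway, and all 7 were found in the count table of 56748 genes and passed the filter on low counts, among 14985 genes tested. One further step of the pathway is not analysed here. The cells were RN2, a mouse acute myeloid leukemia line labelled MLL-AF9 / NrasG12D, and every group carried a lentiviral construct and was sorted on day 5 after transduction. The groups were seBE with 1 nM rapamycin, seBE with vehicle, intact BE with 1 nM rapamycin, intact BE with vehicle, the catalytic mutant and nCas9, each with 3 libraries. Drug and vehicle were given for 24 h before sorting. nCas9 is a Cas9 that nicks DNA and carries no deaminase, intact BE is an editor with an active evolved deaminase, the catalytic mutant (E63A in the deposited column names) is the same editor with an inactive deaminase, and seBE is an editor controlled by rapamycin. Rapamycin is also known as an inhibitor of the kinase complex mTORC1. In seBE the rapamycin group therefore differs from vehicle in drug exposure as well as in editor state. In intact BE, whose deaminase is active without the drug, it differs in drug exposure. The treatment label of nCas9 and the catalytic mutant names vehicle, while the treatment protocol names drug or vehicle for intact BE and seBE alone. The labels call the libraries biological replicates, and nothing further states separate transductions, so a p-value here speaks of the spread among these libraries alone. The purpose stated for the series is to look for gene expression changes that bear on base editor toxicity.

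Heme is an iron-containing ring made by a chain of enzymes that starts and ends in the mitochondrion. ALAS joins glycine to succinyl-CoA and is the rate-limiting step in most tissues, and heme itself represses Alas1, the housekeeping form of the enzyme, while Alas2 is the erythroid form. The next enzymes act in the cytosol and build the ring, and coproporphyrinogen oxidase, protoporphyrinogen oxidase and ferrochelatase, encoded by Cpox, Ppox and Fech, complete it in the mitochondrion. In myeloid cells heme serves the respiratory chain, myeloperoxidase and the NADPH oxidase.

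The promoter windows of Cpox, Ppox and Alas1 are shown because these genes account for all but 1 of the changes called below. Each is the first window listed for the gene by RefSeq on GRCm38.p6, covering 250 bases before and 50 bases after the start site, written 5′ to 3′ on the gene's strand. Capitals mark matches, on either strand, to any of 6 motifs: GATAAG of the GATA factors, the E-box CACGTG, the CCAAT box, the palindrome of NRF1, the TGACNNNGC element of NRF2 and BACH1, and the GC box GGGCGG.
Cpox, chr16:58669958-58670257, plus strand: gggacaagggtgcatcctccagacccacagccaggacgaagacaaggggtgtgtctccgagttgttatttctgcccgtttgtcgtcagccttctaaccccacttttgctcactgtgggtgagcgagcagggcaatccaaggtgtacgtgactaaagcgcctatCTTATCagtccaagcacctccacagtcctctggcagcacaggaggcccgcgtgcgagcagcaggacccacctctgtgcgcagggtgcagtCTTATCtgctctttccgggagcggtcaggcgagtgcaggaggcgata
Ppox, chr1:171281137-171281436, minus strand: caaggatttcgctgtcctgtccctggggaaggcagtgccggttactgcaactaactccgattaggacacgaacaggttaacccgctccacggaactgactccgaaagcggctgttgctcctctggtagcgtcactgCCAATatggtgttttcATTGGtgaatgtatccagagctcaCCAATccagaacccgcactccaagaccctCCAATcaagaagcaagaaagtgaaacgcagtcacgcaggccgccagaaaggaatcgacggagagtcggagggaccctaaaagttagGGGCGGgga
Alas1, chr9:106247905-106248204, minus strand: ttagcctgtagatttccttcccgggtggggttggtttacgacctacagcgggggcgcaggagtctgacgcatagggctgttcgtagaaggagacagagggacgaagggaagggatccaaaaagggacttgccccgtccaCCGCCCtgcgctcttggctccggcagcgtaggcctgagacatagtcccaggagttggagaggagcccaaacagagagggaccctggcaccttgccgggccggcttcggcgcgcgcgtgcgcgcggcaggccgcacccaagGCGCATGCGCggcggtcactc
The Cpox window held 2 matches to GATAAG, the core recognised by GATA factors, both on the opposite strand, at positions -87 and 4 from the start site listed by RefSeq. The end of this window was not found near the start of a GENCODE M21 transcript of Cpox, unlike those of Ppox and Alas1, so these positions hold for the RefSeq start alone. That motif was present in 7.43% of 27025 promoter windows of the same length. The Ppox window held 4 matches to CCAAT, at positions -114, -98, -74 and -45, a motif found in 37.9% of windows, and 1 match to GGGCGG, found in 35.9%. The Alas1 window held the NRF1 palindrome, the capitals near its 3′ end, at position 30, a sequence present in 0.977% of windows, and 1 match to GGGCGG. The E-box, found in 7.24% of windows, and the NRF2 and BACH1 element, found in 12.5%, had no match in these windows. Matches overlapped no other motif of the set. They describe the letters of the window and no binding was measured.

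Alas1 was the most abundant of the enzymes by a wide margin. Levels between genes were compared as CPM, the depth-scaled read count, divided by the gene's merged exon length in kb. On this scale the means over 18 libraries were 56.9 CPM per kb for Alas1, 15.995 for Urod, 10.1 for Ppox, 7.15 for Alad, 2.95 for Fech, 2.34 for Uros and 2.20 for Cpox. Alas1 made up 58.3% of the summed level of the 7 genes and lay at the 94.4th percentile of all tested genes, and Cpox at the 35.6th percentile. Merged exon lengths include long transcript models that may be little used, such as for Fech at 13838 bases, which lowers the value for that gene. Raw counts per library ran from 94 for Uros to 9819 for Alas1, so counting error is largest for Uros. The SD between libraries of a group ran from 0.427% of the mean, for Alas1 in nCas9, to 23.8%, for Uros in seBE with rapamycin.

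**Figure D1:**
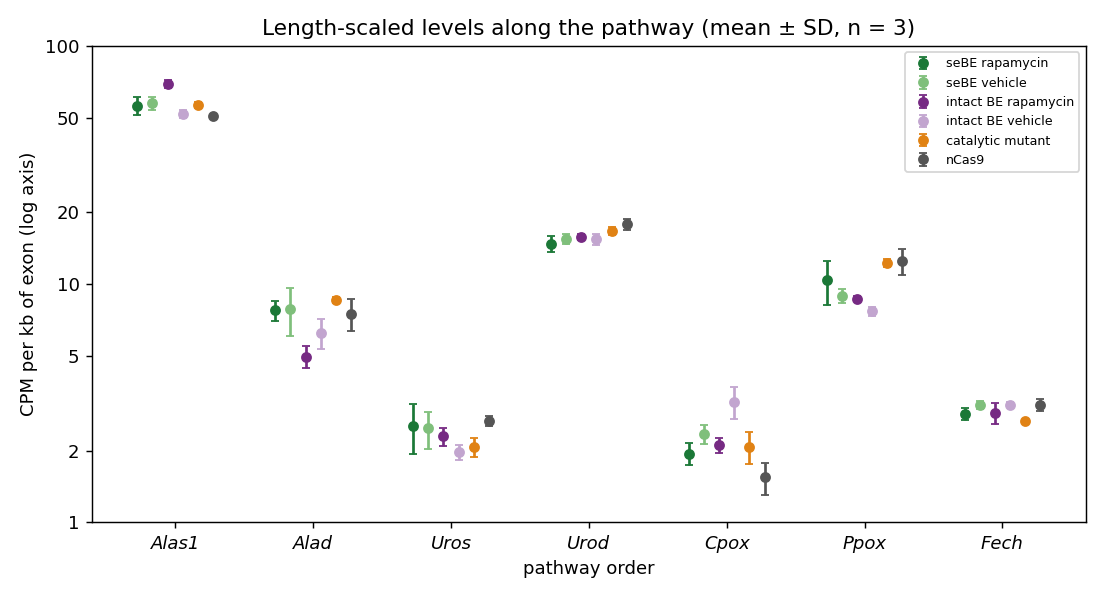
Length-scaled levels (CPM per kb of merged exon, log axis) of the 7 genes in pathway order, with 1 point per group at the mean and whiskers of 1 SD over 3 libraries. Alas1 sits above the other genes in every group, and the spread of the groups is widest for Cpox, Ppox and Alad.

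The libraries held 13835979 to 23284932 counts. Markers went with the label of a myeloid line: all 10 myeloid and leukemia markers were tested, with a summed level of 2982 to 3871 CPM over the 18 libraries (marker sums are not TMM-scaled). Erythroid markers were at or near 0, with 1 of 10 tested (Klf1), a sum of 0.432 to 1.99 CPM, and Hbb-bs and Slc4a1 at 0 in all libraries. Alas2 had 5 counts in all 18 libraries together, so the ALAS transcript measured here was that of Alas1. Summed markers of megakaryocytes ran from 6.65 to 16.8 CPM, of lymphocytes up to 0.899 and of fibroblasts or endothelium from 11.7 to 26.2, and mast cell genes from 111.8 to 187.5. Single genes carried most of these sums. In all libraries together, Itga2b had 3863 counts against 3 for Pf4, and Pdgfrb had 5524 against 0 for Col1a2. Among mast cell genes, Gata2 had 33122 counts, Cpa3 11079 and Fcer1a 0. nCas9 replicate 2 stood apart on the second principal component, at 62.98 against -24.5 to 21.5 for the other libraries, and catalytic mutant replicate 3 differed most from the other libraries of its group. Member calls and list counts described below are also given without both where they differ. In seBE with rapamycin, replicate 3 differed from replicates 1 and 2 by a mean chi-square per gene of 28.3 and 26.5. Replicates 1 and 2 of that group differed by 16.1, and replicate 3 was left out only in turn. In bulk RNA, fewer cells of a type and less RNA per cell cannot be told apart.

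At most 2 of the 7 genes changed in any comparison between groups, 1 higher and 1 lower in each such case. A gene is said to have changed where its adjusted p was under 0.05 in edgeR's quasi-likelihood test, adjusted over all genes tested. Intact BE with vehicle against nCas9 called 2 of 7 members, Cpox higher and Ppox lower, where 23% of all tested genes passed. Intact BE with vehicle against the catalytic mutant had the same 2 members called in the same directions, where 21% of all genes passed. For seBE with vehicle against nCas9, again with Cpox higher and Ppox lower, the background was 4.56% of all genes. Rapamycin against vehicle in intact BE had Alas1 higher and Cpox lower, with 3.32% of all genes called. Under rapamycin, seBE against intact BE had Alad higher and Alas1 lower, with 4.69% of all genes called. These comparisons share groups, so that a shift in nCas9 or in intact BE enters several of them. The members' median log2 fold change was -0.21 for intact BE with vehicle against nCas9 and -0.11 against the catalytic mutant, where the medians over all genes were -0.04 and -0.03.

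No member passed in the other comparisons between groups. The shares of all genes below are at adjusted p. No share at unadjusted p is given, so the unadjusted counts of members have no background beside them. For the catalytic mutant against nCas9, 0 of 7 passed by edgeR and by DESeq2, where 4.3% of all genes passed by edgeR, and 3 members had an unadjusted p under 0.05. For seBE with vehicle against the catalytic mutant the counts were 0 by both tools and 2 unadjusted, with 0.0267% of all genes called. For seBE with vehicle against intact BE with vehicle they were 0 by both tools and 2 unadjusted, with 3.99% of all genes called. Rapamycin against vehicle in seBE gave 0 members by both tools and 0 at an unadjusted p under 0.05, and 0% of all genes by edgeR. The difference between the drug effects, in seBE against intact BE, passed for 1 member, Alas1, where 0.187% of all genes passed.

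**Figure D2:**
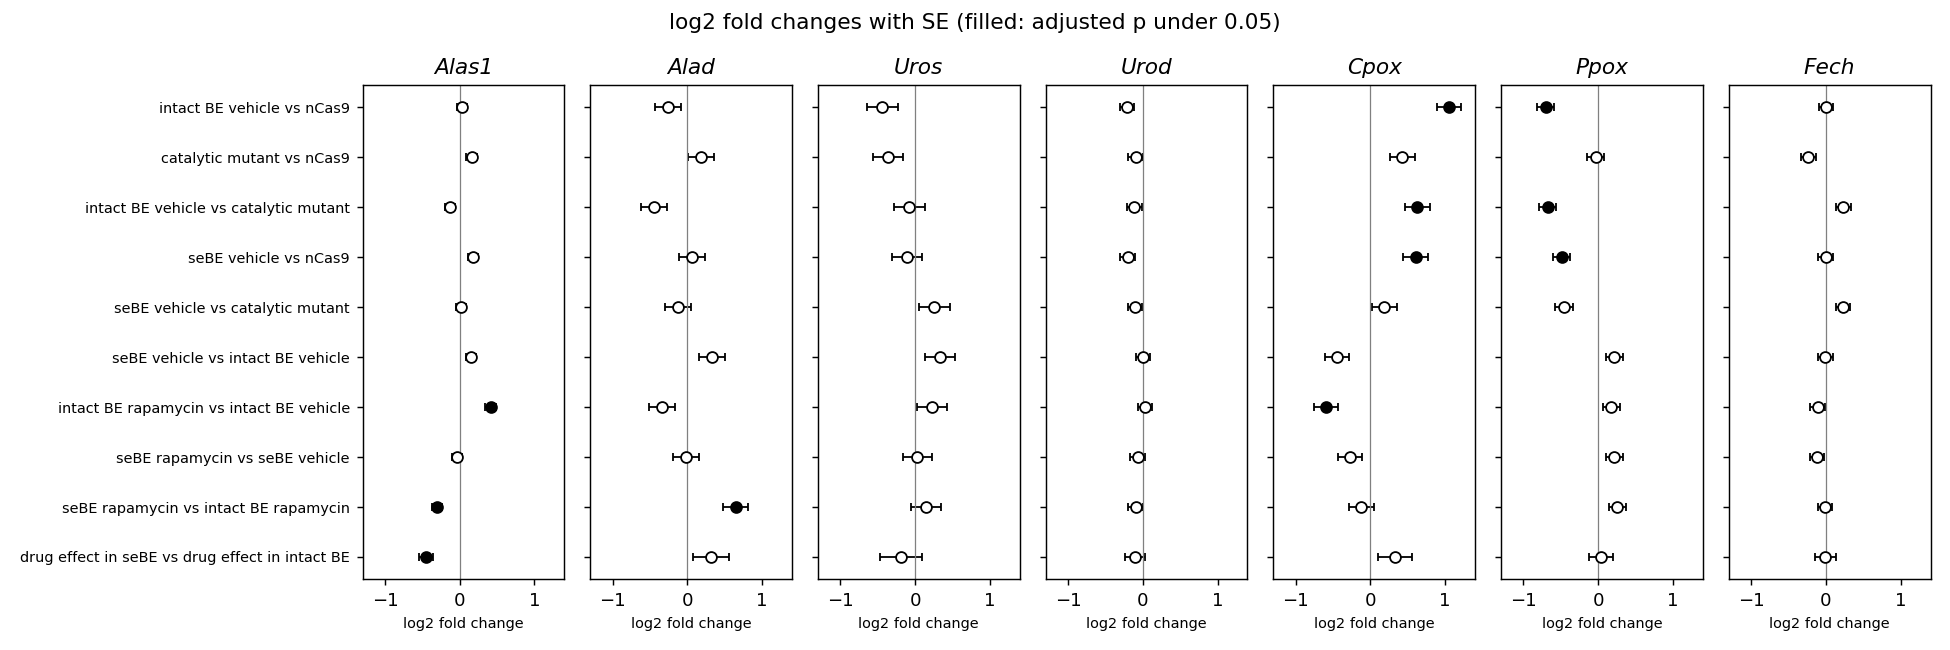
log2 fold change (x axis) with its SE for each of the 7 genes (panels) in each of 10 comparisons (rows), the first-named group over the second. Filled points passed an adjusted p of 0.05. Filled points are found for Alas1, Alad, Cpox and Ppox, and the points of Cpox and Ppox lie on opposite sides of 0 in the comparisons with nCas9 under vehicle.

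Alas1, the entry step, was highest in intact BE with rapamycin. Its level there was 431, 440 and 408 CPM, against 309, 316 and 335 CPM in intact BE with vehicle, 361, 341 and 347 CPM in the catalytic mutant and 311.5, 312.8 and 314.2 CPM in nCas9. In seBE it was 375, 348 and 316 CPM with rapamycin, against 375, 357 and 333 CPM with vehicle. All 3 libraries of intact BE with rapamycin lay above the other 15 libraries, whose highest value was 375 CPM. Below that group, neighbours in the order of means overlapped, from seBE with vehicle through the catalytic mutant, seBE with rapamycin and intact BE with vehicle to nCas9.

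In intact BE, Alas1 rose under rapamycin by 33.3% (log2 0.41 ± 0.0694 SE, adjusted p = 0.000192), and the call held without any of the 6 libraries compared. In seBE the same drug gave a log2 fold change of -0.04 ± 0.0693, with a 95% interval of -0.18 to 0.11. The difference between these drug effects was -0.45 ± 0.0981 on the log2 scale, with adjusted p = 0.0335. That call was lost at adjusted p = 0.0665 in a fit of the 4 groups alone, and without any of 9 of the 12 libraries, at 0.0555 to 0.179. Those 9 were every intact BE library except rapamycin replicate 3, seBE vehicle replicates 1 and 2, and seBE rapamycin replicates 2 and 3, while the difference itself stayed between -0.51 and -0.39. Under rapamycin Alas1 was lower in seBE, at 346 ± 29.5 CPM, than in intact BE, at 426 ± 16.9 CPM (SD, n = 3 each), a log2 fold change of -0.30 ± 0.0692 (adjusted p = 0.00812, or 0.0523 from these 2 groups alone). An antisense transcript, 4930500F10Rik, shares 7.53% of the merged exon bases of Alas1, and its mean level of 1.37 CPM was small beside that of Alas1.

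Alad, which joins pairs of the ALAS product into porphobilinogen in the cytosol, was lowest in intact BE with rapamycin. It stood at 10.3, 9.27 and 8.29 CPM in that group, against 9.98, 11.8 and 13.3 CPM in intact BE with vehicle. In seBE it stood at 16.1, 13.5 and 13.97 CPM with rapamycin, against 11.6, 18.3 and 14.1 CPM with vehicle. The 2 rapamycin groups did not overlap, while every pair of neighbours in the order of all 6 means did, from the catalytic mutant at 16.01 CPM down. Under rapamycin Alad was higher in seBE than in intact BE by log2 0.64 ± 0.173 (adjusted p = 0.0245). That call was lost without seBE rapamycin replicates 1 or 2 or intact BE rapamycin replicates 2 or 3 (adjusted p = 0.0506 to 0.118), from the 2 groups alone (0.0686) and once the trend of level on gene length was removed (0.0555). For intact BE with vehicle against the catalytic mutant, Alad had log2 -0.45 ± 0.174 with adjusted p = 0.0625, and passed at 0.0381 by DESeq2, at 0.0299 from the 2 groups alone and at 0.0494 without intact BE vehicle replicate 3.

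Uros and Urod, whose products close the ring and trim its side chains, passed in none of the 10 comparisons. Uros, the least covered of the enzymes, averaged 9.07 CPM in seBE with rapamycin, 8.85 in seBE with vehicle, 8.22 in intact BE with rapamycin, 7.04 in intact BE with vehicle, 7.41 in the catalytic mutant and 9.52 in nCas9. Its 3 libraries of intact BE with vehicle, at 6.70 to 7.60 CPM, lay below those of nCas9, at 8.97 to 9.82 CPM, but the log2 difference of -0.44 ± 0.203 had adjusted p = 0.123. Urod averaged 38.2 CPM in seBE with rapamycin, 40.2 in seBE with vehicle, 40.9 in intact BE with rapamycin, 40.0 in intact BE with vehicle, 43.2 in the catalytic mutant and 46.2 in nCas9. Its group means spanned a ratio of 1.21, and neighbouring groups overlapped at every step of the order for both genes. For Urod in intact BE with vehicle against nCas9 the 95% interval of the log2 difference was -0.40 to -0.01 and the adjusted p was 0.12. For Uros that interval was -0.85 to -0.02, so these data do not show that either gene held its level.

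Cpox, the oxidase that turns coproporphyrinogen into protoporphyrinogen, had the widest range of the 7 genes. In intact BE it stood at 13.2, 13.8 and 15.2 CPM with rapamycin, against 21.3, 24.7 and 18.1 CPM with vehicle. The catalytic mutant had 15.4, 14.6 and 11.4 CPM, and nCas9 had 8.69, 10.2 and 11.9 CPM. In seBE it was 13.9, 11.4 and 13.5 CPM with rapamycin, against 14.3, 17.2 and 15.5 CPM with vehicle. All 3 libraries of intact BE with vehicle lay above the other 15, whose highest value was 17.2 CPM. The remaining groups overlapped with their neighbours from seBE with vehicle down to nCas9, and the highest group mean was 2.08 times the lowest.

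Cpox was higher in intact BE with vehicle than in nCas9 by log2 1.05 ± 0.165 (adjusted p = 2.1e-05), which held without any of the 6 libraries. Against the catalytic mutant the difference was 0.63 ± 0.163 (adjusted p = 0.00505), and 0.51 with adjusted p = 0.0513 without intact BE vehicle replicate 2. The catalytic mutant against nCas9 gave 0.42 ± 0.167, which did not pass (adjusted p = 0.145). Cpox was higher in seBE with vehicle than in nCas9 by 0.61 ± 0.166 (adjusted p = 0.0289). That call was lost without nCas9 replicates 1 or 2 or any seBE vehicle library (adjusted p = 0.0761 to 0.135), and at 0.0733 without the 2 libraries that stood apart. Under rapamycin, Cpox in intact BE fell by 0.60 ± 0.161 on the log2 scale relative to vehicle (adjusted p = 0.0267). That call was lost without intact BE vehicle replicates 1 or 2 or intact BE rapamycin replicates 1 or 2 (adjusted p = 0.0756 to 0.237). In seBE the drug gave -0.28 ± 0.162, and the difference between the drug effects, 0.32 ± 0.228, did not pass (adjusted p = 0.863). Gpr15, which shares 3.06% of the merged exon bases of Cpox on the other strand, had 52 counts in all libraries and was not tested.

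Ppox, the next oxidase of the chain, ran the other way between constructs. In intact BE it stood at 40.2, 38.5 and 38.9 CPM with rapamycin, against 33.0, 35.9 and 35.2 CPM with vehicle. The catalytic mutant had 54.8, 57.6 and 53.4 CPM, and nCas9 had 64.5, 54.2 and 50.7 CPM. In seBE the values were 46.7, 56.7 and 37.1 CPM with rapamycin, against 37.8, 43.1 and 39.9 CPM with vehicle. All 3 libraries of intact BE with vehicle lay below the other 15, whose lowest value was 37.1 CPM, and intact BE with rapamycin was the next group up with no overlap. From there neighbouring groups overlapped up to nCas9.

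Ppox was lower in intact BE with vehicle than in nCas9 by log2 -0.70 ± 0.115 (adjusted p = 3.43e-05), and than in the catalytic mutant by -0.67 ± 0.115 (adjusted p = 0.000139), both also without any single library of those compared. The catalytic mutant against nCas9 gave -0.03 ± 0.113, with adjusted p = 0.924. In seBE with vehicle Ppox was lower than in nCas9 by -0.49 ± 0.114 (adjusted p = 0.0107). Without nCas9 replicate 1, seBE vehicle replicate 1 or seBE vehicle replicate 3 that call was lost, at adjusted p = 0.0592 to 0.101. Under rapamycin, seBE against intact BE gave 0.26 ± 0.113 (adjusted p = 0.201), or 0.40 with adjusted p = 0.0208 without seBE rapamycin replicate 3. Rapamycin against vehicle gave 0.18 ± 0.115 in intact BE and 0.22 ± 0.114 in seBE, which did not pass. The gene B4galt3 lies on the other strand and shares 17.5% of the merged exon bases of Ppox, and the strand setting of the counts is not given in the sources used here. B4galt3 stood at 32.6 CPM in intact BE with vehicle, against 40.8 CPM in the catalytic mutant and 39.7 CPM in nCas9 (log2 -0.33, adjusted p = 0.0431, and -0.28, adjusted p = 0.0816). In seBE with vehicle it stood at 41.3 CPM, against 39.7 CPM in nCas9. Its part in the Ppox counts was not tested.

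Fech, whose product inserts iron into the ring, varied least of the 7 genes. It averaged 39.6 CPM in seBE with rapamycin, 42.9 in seBE with vehicle, 39.9 in intact BE with rapamycin, 43.1 in intact BE with vehicle, 36.7 in the catalytic mutant and 43.0 in nCas9. The highest group mean was 1.18 times the lowest, and neighbouring groups overlapped throughout the order. For intact BE with vehicle against nCas9 the log2 difference was 0.00 ± 0.0974, with a 95% interval of -0.20 to 0.20. Once the trend of level on gene length was removed, that difference was -0.17 ± 0.0976 and did not pass (adjusted p = 0.246). The catalytic mutant's libraries, at 36.1, 36.7 and 37.1 CPM, lay below the nCas9 libraries, at 44.7, 40.4 and 44.0 CPM, with log2 -0.23 ± 0.0983 and adjusted p = 0.178.

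**Figure D3:**
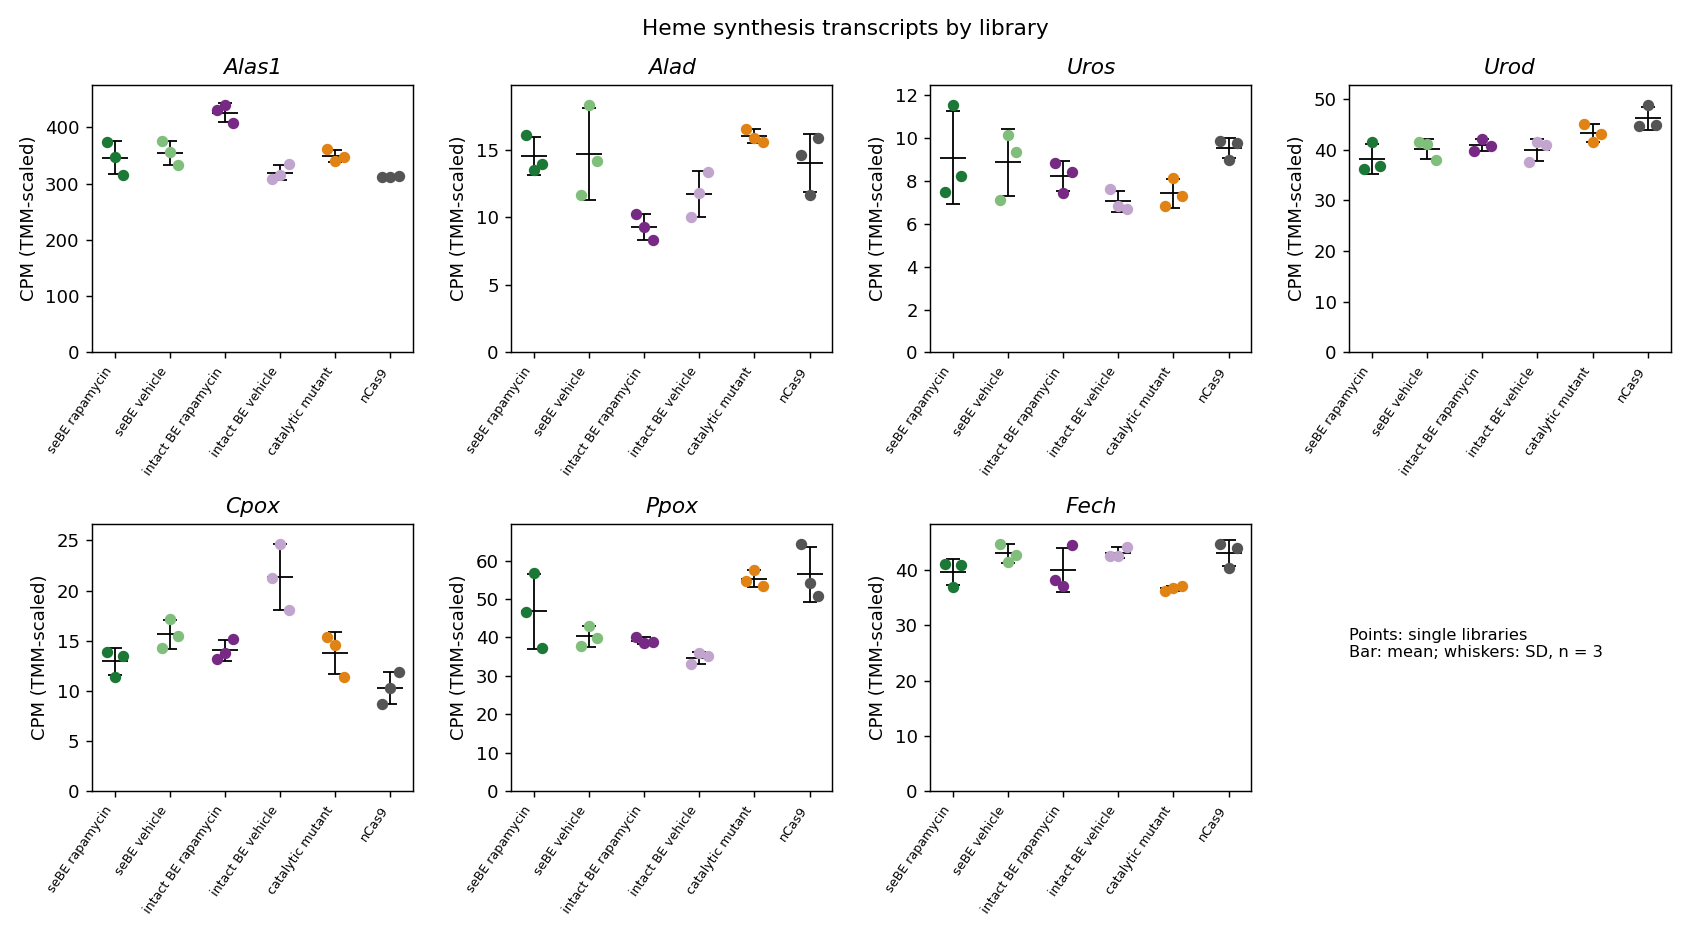
Level of each of the 7 genes (y axis, CPM scaled with TMM, from 0) in the 18 libraries by group (x axis), with the mean and SD over 3 libraries. Intact BE with rapamycin stands above the other groups for Alas1, and intact BE with vehicle stands above them for Cpox and below them for Ppox.

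The balance of enzymes called above was also read within each library, where the scaling of the library cancels. Shown are the adjacent Cpox and Ppox, and Alas1 and Cpox, which lie apart in the chain. The ratio of Cpox to Ppox counts per kb was 0.195 ± 0.0556 in seBE with rapamycin, 0.263 ± 0.00711 in seBE with vehicle, 0.243 ± 0.0215 in intact BE with rapamycin, 0.417 ± 0.0618 in intact BE with vehicle, 0.169 ± 0.0231 in the catalytic mutant and 0.126 ± 0.0336 in nCas9 (SD, n = 3 each). Its lowest value in intact BE with vehicle was 0.348, above the highest in any other group, 0.270 in seBE with vehicle. The ratio of Alas1 to Cpox counts per kb was 32.9 ± 3.47 in intact BE with rapamycin, against 16.5 ± 3.18 in intact BE with vehicle. It was 29.1 ± 3.88 in seBE with rapamycin, against 24.6 ± 3.22 in seBE with vehicle. No test was made on these ratios, whose parts are tested above.

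**Figure D4:**
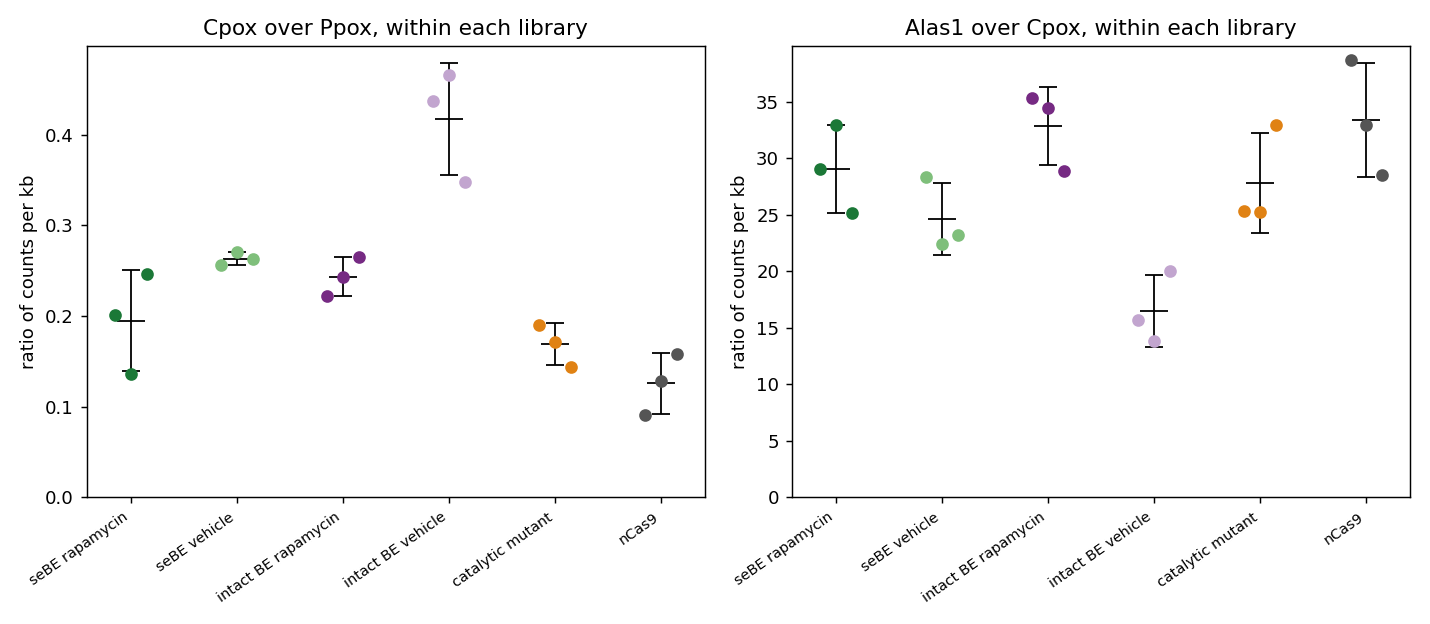
Ratio of counts per kb (y axis, from 0) of Cpox to Ppox (left) and of Alas1 to Cpox (right) within each library, by group (x axis), with the mean and SD over 3 libraries. Intact BE with vehicle has the highest Cpox to Ppox ratio, with a mean of 0.417, and the lowest Alas1 to Cpox ratio, with a mean of 16.5.

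Features of the libraries also differed between the groups. Mitochondrially encoded genes took 3.58% ± 0.889 of counts in seBE with rapamycin, 3.19% ± 0.797 in seBE with vehicle, 2.11% ± 0.132 in intact BE with rapamycin, 1.88% ± 0.126 in intact BE with vehicle, 4.53% ± 0.879 in the catalytic mutant and 5.10% ± 0.585 in nCas9 (SD, n = 3 each). The slope of log2 level on gene length, per doubling of length, was 0.0497 ± 0.0236 in intact BE with vehicle, -0.0435 ± 0.0201 in the catalytic mutant and -0.0588 ± 0.0183 in nCas9. It was 0.0658 ± 0.0154 in intact BE with rapamycin, -0.0195 ± 0.0217 in seBE with vehicle and 0.00637 ± 0.0248 in seBE with rapamycin. Both intact BE groups had the highest slopes and the lowest mitochondrial shares, and Alas1 and Cpox differed between them. The order of the groups by mean Ppox level was the same as by mitochondrial share. Ppox ran from 56.5 CPM in nCas9 down to 34.7 CPM in intact BE with vehicle. With the length trend removed, intact BE with vehicle against nCas9 gave log2 0.96 for Cpox (adjusted p = 8.45e-05) and -0.73 for Ppox (adjusted p = 3.81e-05). The part of the mitochondrial share in these results was not tested.

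Genes whose pattern was most like that of a member were named by the smallest root mean square difference of centred log2 CPM over the 18 libraries. For Alas1, whose own root mean square deviation was 0.16, these were Csf2rb, Lonp2 and Arhgef7, at 0.06 to 0.08. For Alad, at 0.31, they were Slc25a22, Wdr90 and Rnf126, at 0.12 to 0.15. For Ppox, at 0.29, they were Rab24, Gpr132 and Nras, at 0.11 to 0.12. Cpox, at 0.35, had no closer match than Taf3, Trappc10 and Dusp18, at 0.21 to 0.22. The likeness is a description over libraries that share groups.

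Some genes around the pathway changed between intact BE with vehicle and nCas9, where 23% of all tested genes were called. The share called lay near or below that background in the heme sensing, heme user, iron-sulfur and breakdown lists. The median log2 fold change of all tested genes was -0.04. Of 12 iron uptake and storage genes 3 were higher and 3 lower (median log2 0.24). Ncoa4, the receptor for ferritin breakdown, was higher at 0.63 ± 0.0805 (331 CPM in intact BE, against 214 CPM in nCas9), as was the transferrin receptor gene Tfrc at 0.52 ± 0.106 (359 CPM in intact BE, against 251 CPM in nCas9). Slc25a28, a mitochondrial iron importer, was lower at -0.81 ± 0.14 (22.3 CPM in intact BE, against 39.1 CPM in nCas9). Of 8 heme sensing genes 2 were higher: Bach1, a repressor that heme releases from DNA, at 0.50 ± 0.0825, and Eif2ak1, the heme-regulated kinase, at 0.43 ± 0.0859 (median of the list 0.18). Of 11 genes for glycine and succinyl-CoA supply and ALAS control 3 were higher and 1 lower (median 0.02), with Ogdh at 0.39 and the succinyl-CoA ligase genes Suclg2 at 0.35 and Sucla2 at 0.30. Of 15 heme users 3 were higher and 1 lower (median 0.11), with Cox15, which makes heme A, at 0.66 ± 0.108, Hccs at 0.30 and Cyba at -0.30. Of 16 iron-sulfur cluster genes 1 was higher and 1 lower (median 0.00), Hspa9 at 0.22 and Fdxr at -0.46. Of 13 genes for heme breakdown and transport 0 passed by edgeR (median 0.07), with 2 at an unadjusted p under 0.05, for which no share of all genes is given. Without the 2 libraries that stood apart, the counts were 2 higher and 3 lower for iron genes, 2 and 1 for supply genes, 2 and 1 for heme users, 1 and 0 for iron-sulfur genes and 1 and 0 for breakdown and transport, and heme sensing stayed at 2 and 0. The share of all genes called in that fit is not given, so these counts have no background beside them. In the catalytic mutant against nCas9, 4.3% of all genes were called. There Cox15 was also higher, at 0.46 ± 0.109, and Fbxl5 of the iron list was lower, at -0.33. Both of those calls were lost without the 2 libraries. Between intact BE with vehicle and the mutant, Cox15 gave 0.20 ± 0.108 and did not pass.

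Some of these genes also changed between intact BE with vehicle and the catalytic mutant, where 21% of all tested genes were called. The share called lay near or below that background in the same 4 lists. Intact BE with vehicle had 5 of 12 iron genes higher and 3 lower than the catalytic mutant (median 0.17), with Ncoa4 at 0.48, Tfrc at 0.63 and Slc25a28 at -0.74. Among the supply genes, Sucla2 was higher at 0.43 ± 0.0876 and Suclg2 at 0.39 ± 0.0972. Slc25a38, the mitochondrial carrier that imports glycine for ALAS, was lower in intact BE than in the mutant at -0.72 ± 0.156 (15.9 CPM in intact BE, against 26.3 CPM in the mutant). Bach1 was higher at 0.41 ± 0.0827, the 1 call among 8 heme sensing genes. The supply genes had 2 higher and 2 lower of 11, the iron-sulfur genes 2 and 2 of 16, the heme users 2 and 1 of 15, and the breakdown and transport genes 1 and 0 of 13. Without the 2 libraries that stood apart, the counts were 4 higher and 1 lower for iron genes, 3 and 0 for heme sensing, 2 and 3 for supply genes and 0 and 0 for breakdown and transport, with no change in count for the other lists. In seBE with vehicle against nCas9, where 4.56% of all genes were called, 2 of 12 iron genes were higher, Slc40a1 at 0.54 ± 0.139 and Ncoa4 at 0.31 ± 0.0805, and Bach1 was higher at 0.30 ± 0.0827. Without the 2 libraries that stood apart these calls were lost: 0 iron genes passed, the heme sensing list had 0 higher and 1 lower, and 1 breakdown and transport gene was called higher where none was with all libraries. The shares of all genes called without those libraries are not given. Lost or gained calls therefore cannot be told from a general shift in the number of calls.

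In intact BE, 3 of 11 supply genes changed under rapamycin, where 3.32% of all tested genes were called. Of these, 1 was higher and 2 were lower than with vehicle (median of the list -0.18, against 0.00 over all genes). Shmt2, the mitochondrial enzyme that makes glycine from serine, was lower at 240 CPM with rapamycin, against 355 CPM with vehicle (log2 -0.57 ± 0.0733, adjusted p = 4.2e-06), Ogdh was lower at -0.28, and Dlst was higher at 0.25. The drug effect on Shmt2 differed between the editors by 0.48 ± 0.103 (adjusted p = 0.028), in the opposite sense to the difference for Alas1. Of 12 iron genes 1 was higher, the mitochondrial iron importer Slc25a37 at 0.32, and 1 lower, Aco1 at -0.41. Bach1 was higher with rapamycin than with vehicle in intact BE, at 0.32 ± 0.0811, and lower in seBE than in intact BE under rapamycin, at -0.39 ± 0.0808. The difference between the drug effects on Bach1 did not pass (adjusted p = 0.816). In seBE itself, rapamycin against vehicle called 0 genes of these lists by edgeR, as it called 0 of all genes tested. In each list 1 to 3 genes had an unadjusted p under 0.05, for which no share of all genes is given.

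**Figure D5:**
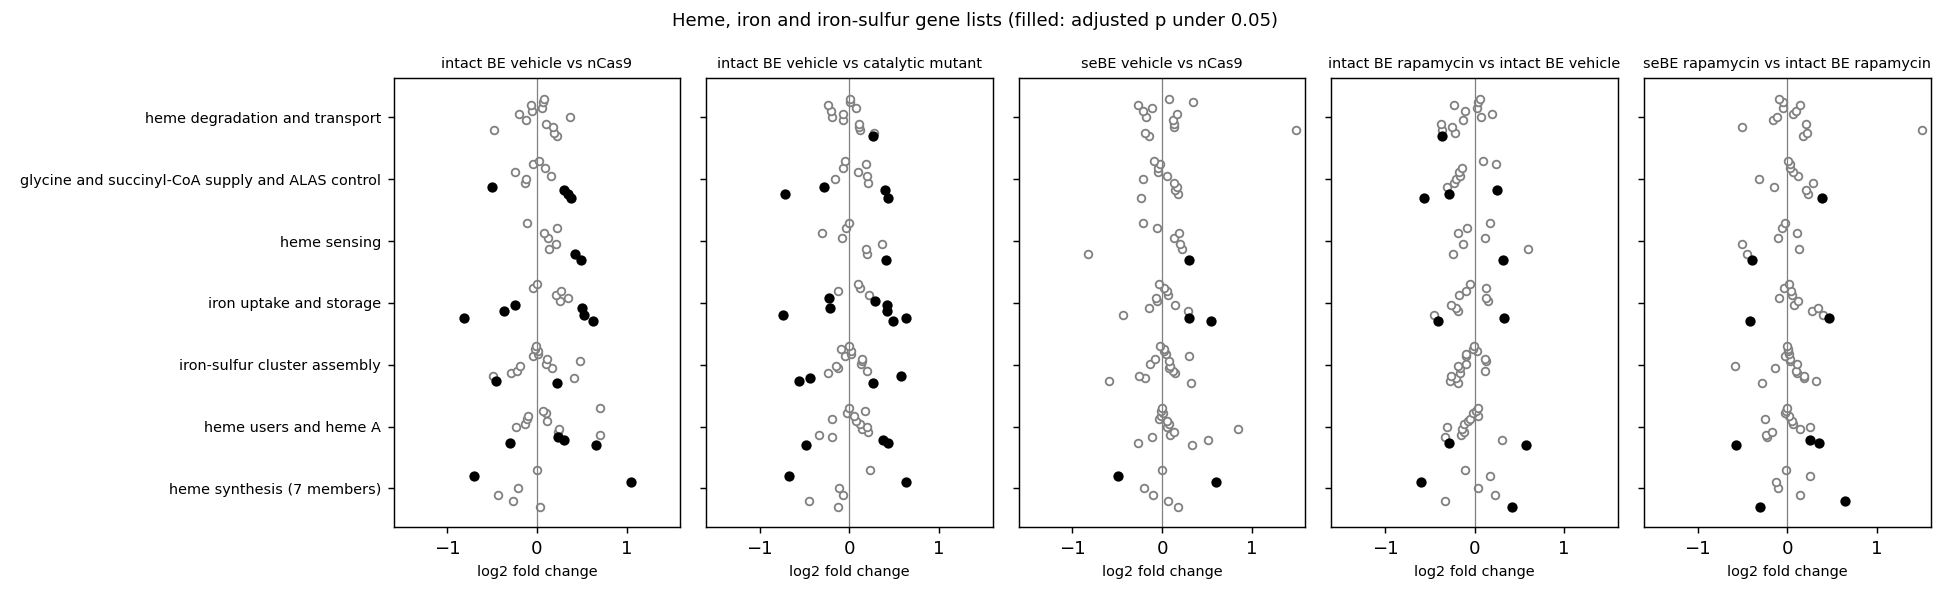
log2 fold change (x axis) of each tested gene of 6 lists and of the 7 heme synthesis genes (rows) in 5 comparisons (panels), the first-named group over the second. Filled points passed an adjusted p of 0.05. In intact BE with vehicle against nCas9, filled points lie on both sides of 0 in the iron, supply, iron-sulfur and heme user lists and in the heme synthesis genes.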

How the data were processed

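PolyA-selected RNA of 18 libraries in 6 groups of 3 was sequenced with a directional protocol, per the labels' protocols. The authors deposited raw read counts per Ensembl gene. The build GRCm39 and the tools fastp 1.0.1, STAR 2.7.1a, SAMtools 1.9, featureCounts (Subread 2.0.3) and DESeq2 are named per the submitters' processing notes. Which annotation release, strand setting and handling of multi-mapping reads applied is not given there.

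Symbols matched 52073 of 56748 IDs through a table of IDs and names. Total counts ran from 13835979 to 23284932 per library. filterByExpr left 14985 genes. The model had 6 group means over the 18 libraries, fitted by edgeR 4.0.16 under R 4.3.3 (TMM scaling, robust quasi-likelihood F tests, no replicate block), with Benjamini-Hochberg adjustment over all genes tested and a threshold of 0.05. The biological coefficient of variation was 13.3% (common dispersion 0.0176). CPM are TMM-scaled, an SE is the log2 fold change divided by the square root of F, and 95% intervals use its t quantile. The log2 CPM used for likeness, trend and principal components have a prior count of 2. The fit was also run on counts simulated for intact BE with vehicle against nCas9 alone, with the spread of the fit itself and no library standing apart. Its outcome is not given, and it cannot speak for the calls made here. No pair of libraries within a group differed by as little as sampling noise.

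The members, lists and 10 comparisons were chosen with earlier results of these data known. Named were all 7 members, up to 3 genes past the threshold per list and comparison in order of adjusted p, and the 3 genes most like each member called.

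The design had foreseen a length column in the deposited table. Length was taken instead from merged exons of GENCODE M21 on GRCm38, an older build, found for 97.4% of tested genes. The alternatives were DESeq2 1.42.0, no filter, 1 CPM in 3 libraries, the compared libraries alone, a replicate block, removal of a length trend (spline with 4 degrees of freedom on genes with log2 CPM of at least 3) with and without the block, removal of nCas9 replicate 2 with catalytic mutant replicate 3, and leaving out each library in turn. Of the listed symbols, Ahsp had no match, and Flvcr2 and Ppargc1a did not pass the filter.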

Additional observations from a re-analysis of the deposited data

Results flagged for a closer look

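The response of Alas1 to rapamycin differed between the editors by the test of the difference itself: the drug effect in seBE minus that in intact BE was -0.45 on the log2 scale (SE 0.0981, edgeR adjusted p = 0.0335). Alas1 was higher with the drug in all 3 intact BE libraries than in any intact BE library with vehicle, while the seBE libraries with and without the drug overlapped. The call depended on single libraries, as given above.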

How the results depend on the processing

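Every call of Cpox and Ppox in intact BE with vehicle against nCas9, of Ppox against the catalytic mutant and of Alas1 under rapamycin in intact BE held in all 8 alternative settings and without any compared library. Across the 8 settings, Cpox against nCas9 ran from 0.96 to 1.05 and Ppox from -0.73 to -0.70 on the log2 scale. Of the values of single genes in these settings, 550 kept their side of the threshold, 5 lost a call and 5 gained one. No call changed direction. The number of members called for seBE with vehicle against the catalytic mutant was 1 without a filter on low counts (Ppox, adjusted p = 0.0364) and 0 as reported. In the compared libraries alone it was 1 for seBE against intact BE with vehicle (Cpox, adjusted p = 0.0212), 0 for seBE against intact BE under rapamycin and 0 for the difference between drug effects. It was 1 for seBE against intact BE under rapamycin with the length trend removed, and 1 for seBE with vehicle against nCas9 without the 2 libraries that stood apart. The share of all genes called in each of these settings, or with single libraries left out, is not given beside these counts.

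Leaving out single libraries, the number called ran from 1 to 2 for rapamycin in intact BE, 0 to 2 for seBE with vehicle against nCas9, 1 to 3 for seBE against intact BE under rapamycin, 1 to 3 for intact BE with vehicle against the catalytic mutant and 0 to 1 for the difference between drug effects. Where a group was left with 2 libraries the spread came from all groups. Same-numbered libraries were at most weakly alike, with correlations of deviation from -0.03 to 0.09 over 27 pairs. Even so, 13 of 18 libraries correlated best with one of their own number, so a weak link by number may be present. A replicate block left the number of members called as it was in all 10 comparisons, with 2 for intact BE with vehicle against nCas9, and the share of all genes called there was 24.9%. With the block and the length trend removed together, Alas1 was also called lower in intact BE with vehicle than in the catalytic mutant (-0.19, adjusted p = 0.0309). Uros, Alad and Cpox had the fewest counts, and small changes in them were the least detectable at this depth.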
